A study of Mus musculus with 12 samples.

Results

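Brown adipose tissue (BAT) burns glucose as well as fat to make heat, and the genes examined here encode the enzymes and carriers of glycolysis, lactate handling and the pentose phosphate pathway. They were a list of 35 genes matched by symbol to the 25124 genes of the expression table, which held each of the 35 once. The list ran from the hexokinases to the lactate transporters and through both arms of the pentose phosphate pathway. Interscapular BAT came from male mice 10 weeks old on a C57B/6J background, either WT littermates or Txnip-/- mice, which carry a knockout of Txnip, the gene of thioredoxin-interacting protein. Each genotype was kept for 1 week at 23 °C (room temperature, RT) or at 30 °C (thermoneutrality, TN), which gave 4 groups with 3 libraries each. The comparisons ask whether loss of Txnip goes with other levels of these transcripts at each temperature, and whether the isozymes of a step change places with temperature.

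In glycolysis, hexokinase traps glucose as its 6-phosphate, phosphofructokinase commits it to breakdown, and the later enzymes turn it into pyruvate, which lactate dehydrogenase exchanges with lactate. The pentose phosphate pathway branches off at glucose 6-phosphate, where its oxidative arm makes NADPH and its non-oxidative arm moves sugars between pentoses and the intermediates of glycolysis. Many steps have several isozymes encoded by separate genes, some of them typical of muscle, brain or white blood cells.

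Levels are TPM, read counts that the authors scaled for transcript length and for depth, so that levels of different genes can be compared. The genes in the table summed to 55.38% to 57.55% of the nominal TPM total, depending on the library. Differences between groups were tested on log2(TPM + 1) with limma over all genes with a mean of at least 1 TPM, and a Benjamini-Hochberg adjusted p was taken over all of them. A gene was called where that p was under 0.05 and the log2 fold change was beyond 0.322 in either direction (0.8 times or less for a fall). The libraries held 29930000 to 47440000 reads. Txnip itself was at 564, 581 and 694 TPM in RT WT and at 24.8, 26.9 and 35.4 TPM in RT Txnip-/-. At TN it was at 1238, 1083 and 1072 TPM in WT and at 11.02, 14.4 and 10.5 TPM in Txnip-/-, so that every library carried the Txnip level of its label. Of 6 brown adipocyte markers, Ucp1, Cidea, Cox7a1 and Cox8b stood at 154 TPM or more in every library, whereas in TN Txnip-/- Ppargc1a was at 6.22, 5.87 and 9.04 TPM and Dio2 at 0.71, 0.571 and 1.902 TPM. Their summed level ran from 11313 to 11929 TPM in RT WT and 8521 to 10735 TPM in RT Txnip-/-, and at TN 6679 to 7578 TPM in WT and 3683 to 4299 TPM in Txnip-/-. Between genotypes, 7 of 8 tested skeletal muscle markers and 3 of 7 macrophage markers were called as higher in Txnip-/- at RT, and 8 of 8 macrophage markers at TN, as described with Hk3 and the muscle isozymes, and 1 of 6 brown adipocyte markers was called as lower in Txnip-/- at RT and 5 of 6 at TN. Their part in the genotype results was not tested. Of short lists for lymphocytes, endothelium, red cells, nerve and Schwann cells, adipocytes and white adipocytes, no marker was called at RT, and at TN 1 of 4 tested lymphocyte markers (Cd79b) and 1 of 2 white adipocyte markers (Retn) were called as higher in Txnip-/-. Between temperatures these cell markers moved too, and their part in the temperature results was not tested. At TN, 7 of 8 macrophage, 3 of 4 lymphocyte and 3 of 5 endothelial markers were called as higher in WT, and 8 of 8, 4 of 4 and 5 of 5 in Txnip-/-, while 4 of 6 brown adipocyte markers in WT and 6 of 6 in Txnip-/- were called as lower. All 3 lymphocyte calls in WT and 3 of the 4 in Txnip-/-, and 1 macrophage call in each genotype (Itgam), were of markers with an RT mean under 1 TPM, which were tested only because of their level in other groups. The labels do not say that each library came from a different mouse, and the p-values then measure only the spread between these samples. In such bulk samples, fewer cells of a type and less RNA per cell cannot be told apart.

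Taken per transcript length, the 35 genes spanned more than 3 orders of magnitude, with 4 of them under 1.7 TPM on average. Over all 12 libraries, 17 genes had a mean of at least 100 TPM, 11 lay between 10 and 100 TPM, and 7 were under 10 TPM. Aldoa, the main aldolase, was the most abundant (1908 to 4108 TPM over the libraries), followed by Tkt, the transketolase of the non-oxidative pentose phosphate arm (1214 to 2135 TPM), and Eno1, the ubiquitous enolase (821 to 1419 TPM). At the other end stood Slc16a3, the lactate exporter of glycolytic cells (0.374 to 1.17 TPM), Eno2, the enolase of neurons (0.478 to 1.46 TPM), and Hk3, a hexokinase of white blood cells (0.18 to 3.38 TPM). Most steps were thus carried by 1 dominant transcript, and in RT WT Hk2 made up 90.3% ± 1.93 (SD, n = 3) of the hexokinase TPM, Pfkl 72.2% ± 2.83 of the phosphofructokinase TPM, and Ldha 67.2% ± 2.16 of the lactate dehydrogenase TPM.

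**Figure D1:**
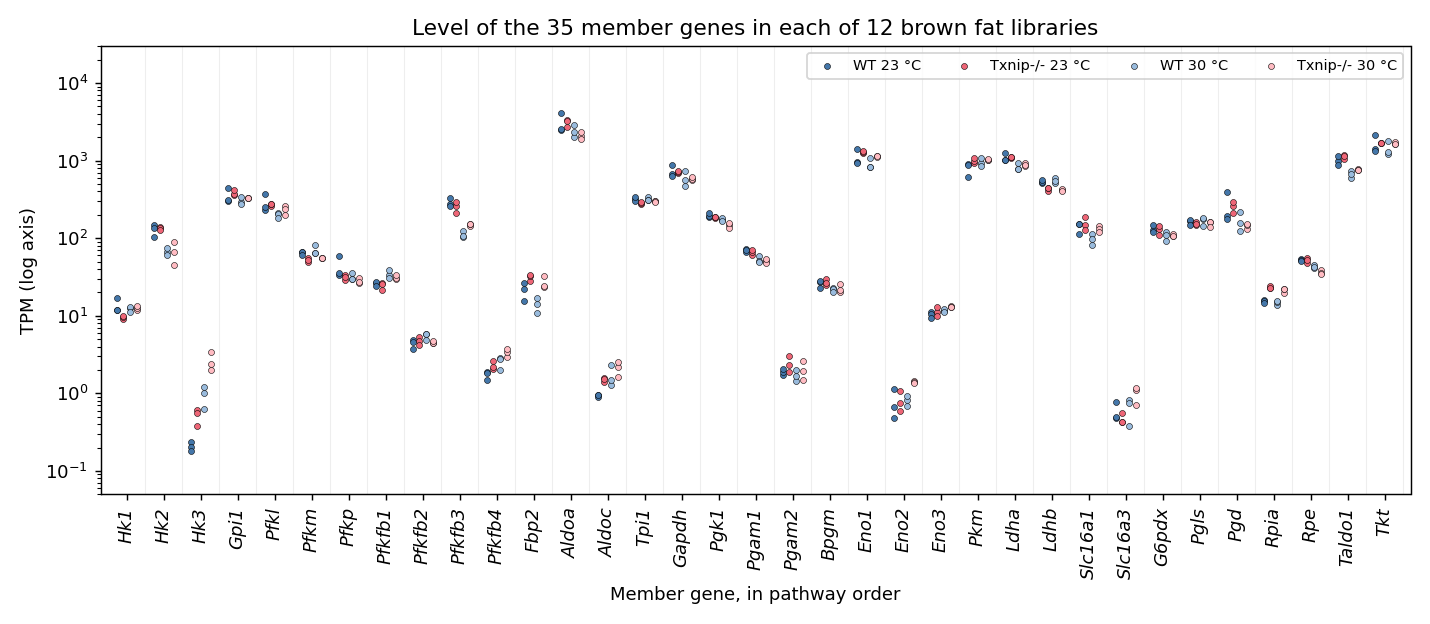
TPM (log axis) of the 35 genes in pathway order, with 1 point for each of the 12 libraries, coloured by group. The genes run from Slc16a3, at 0.374 to 1.17 TPM, to Aldoa at 1908 TPM or more in every library, and 1 RT WT library lies above the other 2 in Pgd, Tkt, Aldoa and Pfkp.

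The start regions of 5 genes are shown because these genes carry the genotype differences and the Ldhb/Ldha ratio described below. Each holds 250 bases before and 50 after the start site of RefSeq (GRCm38.p6, the mm10 assembly). It is given 5′ to 3′ on the strand of its gene, with the E-box CACGTG in capitals. The E-box is the core of the element that the glucose-responsive factors of the MondoA and ChREBP family bind, and Txnip is a known target of them. It reads the same on both strands. Hk3, also called between genotypes, is left out because the RefSeq start site of its window lies 566 bases from that of the counted transcript.
Rpia (chr6:70792126-70792425, minus strand): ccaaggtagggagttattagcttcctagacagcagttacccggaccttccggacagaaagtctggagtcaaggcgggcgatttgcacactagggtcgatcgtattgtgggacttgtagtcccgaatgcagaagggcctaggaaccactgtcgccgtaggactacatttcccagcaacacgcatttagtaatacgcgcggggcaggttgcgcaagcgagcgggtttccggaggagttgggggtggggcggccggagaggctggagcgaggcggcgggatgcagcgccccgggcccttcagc
Pfkfb3 (chr2:11553880-11554179, minus strand): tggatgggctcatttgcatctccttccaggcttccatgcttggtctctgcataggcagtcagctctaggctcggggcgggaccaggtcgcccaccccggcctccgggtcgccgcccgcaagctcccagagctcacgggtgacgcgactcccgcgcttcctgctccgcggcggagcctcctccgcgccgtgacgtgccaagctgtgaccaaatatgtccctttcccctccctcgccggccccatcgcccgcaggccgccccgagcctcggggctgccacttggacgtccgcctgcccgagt
Fbp2 (chr13:62858351-62858650, minus strand): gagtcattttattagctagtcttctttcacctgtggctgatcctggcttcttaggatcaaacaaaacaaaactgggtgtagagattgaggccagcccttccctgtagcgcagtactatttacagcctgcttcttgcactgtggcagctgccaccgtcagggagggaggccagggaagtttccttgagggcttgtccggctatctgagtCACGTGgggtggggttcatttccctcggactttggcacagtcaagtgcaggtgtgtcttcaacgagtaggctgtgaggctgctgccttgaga
Ldha (chr7:46845554-46845853, plus strand): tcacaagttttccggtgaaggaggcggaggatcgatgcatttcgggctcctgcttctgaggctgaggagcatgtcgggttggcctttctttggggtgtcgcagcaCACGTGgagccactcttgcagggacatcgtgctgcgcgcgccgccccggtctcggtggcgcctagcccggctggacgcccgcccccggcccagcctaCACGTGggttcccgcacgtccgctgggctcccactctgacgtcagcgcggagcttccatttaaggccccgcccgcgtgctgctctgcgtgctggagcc
Ldhb (chr6:142507908-142508207, minus strand): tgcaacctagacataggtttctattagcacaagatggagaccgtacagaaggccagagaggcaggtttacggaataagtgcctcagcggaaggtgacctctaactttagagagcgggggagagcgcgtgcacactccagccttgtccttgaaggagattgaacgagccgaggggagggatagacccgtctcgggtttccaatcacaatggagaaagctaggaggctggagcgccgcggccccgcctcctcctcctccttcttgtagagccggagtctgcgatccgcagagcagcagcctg

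Within the window, Ldha held 2 E-boxes, which began at positions -145 and -48 from the start site, and Fbp2 held 1, at -42, while the windows of Rpia, Pfkfb3 and Ldhb held none of these letters. Over the list, 4 of 35 windows (11.4%) held an E-box, those of Pfkfb2, Fbp2, Ldha and Slc16a1, against 7.15% of 32851 RefSeq windows of the same length. The shorter run ACGTG on either strand, which lies inside each E-box and is also the core of the hypoxia response element, was in 14 of 35 windows (40.0%) and in 19.6% of all windows. The GC box GGGCGG was in 23 of 35 windows (65.7%) against 35.7% of all, and CCAAT in 13 of 35 (37.1%) against 37.4%, both searched on either strand. The list gives 1 window for each gene, that of Hk3 included, while the RefSeq windows hold several for some genes. The sets were not matched for base content. These counts describe letters, and no binding data were set beside them.

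The genes of this pathway stood apart in some WT libraries, which bears on the comparisons. In RT WT replicate 3, 12 of 33 tested genes differed by more than 0.322 on the log2 scale from the mean of the other 2 RT WT libraries, 10 of them upward, against 14.7% of all 12486 genes. Pgd, the second NADPH-producing enzyme of the oxidative arm, was 2.09 times the mean of the other 2 libraries, Pfkp, the platelet phosphofructokinase, 1.704 times, Aldoa 1.63 times, Tkt 1.56 times, Pfkl 1.51 times and Eno1 1.5 times, whereas Pkm, the pyruvate kinase, was 0.693 times. In TN WT replicate 2, 7 of 33 genes stood above the other 2 TN WT libraries by this much and none below, against 7.94% of all genes. They included Pgd (1.51 times), Gapdh (1.44 times), Tkt (1.43 times) and Eno1 (1.31 times). TN WT replicate 1 had 9 such genes, 7 of them below, against 12.02% of all genes. The 6 Txnip-/- libraries had at most 5 such genes each.

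At RT, the genotypes differed past the threshold in 1 of these genes. Of 32 tested genes, 1 (3.12%) was called, Rpia, which was higher in Txnip-/-, while 1.49% of all 11980 tested genes were called, 0.76% as higher and 0.726% as lower. The median log2 fold change of the 32 genes was 0.044, against 0.033 for all genes. Leaving out 1 library moved the median of the list between -0.050 (without RT WT replicate 1) and 0.080 (without RT WT replicate 3). An unadjusted p under 0.05 was found for 8 of the 32 genes and for 1921 of all 11980. Hk3, Eno2 and Slc16a3 were under the minimum of 1 TPM and were not tested. Leaving out RT WT replicate 2, RT Txnip-/- replicate 1 or RT Txnip-/- replicate 3 took the count from 1 to 0, while over all genes it went from 178 to 2, 33 and 25. Without RT WT replicate 3, 2 genes were called, Rpia and also Eno1, which was then higher in Txnip-/- (log2 fold change 0.45, adjusted p = 0.0260) after values of 965, 927 and 1419 TPM in RT WT and 1257, 1286 and 1338 TPM in RT Txnip-/-.

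At TN, 5 of 34 tested genes (14.7%) were called, 4 higher (Hk3, Pfkfb3, Fbp2 and Rpia) and 1 lower (Ldhb) in Txnip-/-, and Slc16a3 was not tested. Hk3 and Eno2 were tested only because of their Txnip-/- levels, their WT means being under 1 TPM, so that the call of Hk3 is no support for the count. Of the 32 genes with both group means at 1 TPM or more, 4 were called. Among all 12891 tested genes, 8.66% were called, 6.49% as higher and 2.17% as lower. The median log2 fold change was 0.071 for the 34 genes and 0.0078 for all genes, and without TN WT replicate 2 these medians were 0.19 and 0.022. Leaving out 1 library moved the count between 1 (without TN Txnip-/- replicate 2) and 6 (without TN WT replicate 2), and it was 3 without TN WT replicate 3 or without TN Txnip-/- replicate 1. With both replicate 2 libraries left out, chosen after seeing the data, it was 0 by limma, with adjusted p of the 5 genes between 0.0527 and 0.120. The count over all genes fell too, from 1116 to 464 without TN Txnip-/- replicate 2 and to 130 without both replicate 2 libraries. With all genes above 0 TPM in the fit, 2 of the 5 were called, Hk3, Fbp2 and Ldhb having adjusted p of 0.0607, 0.0572 and 0.0590. With the authors' log2 values 3 of the 5 were called, Pfkfb3 (0.32) and Ldhb (-0.30) then being under the fold limit. Without TN WT replicate 2, Eno1 (log2 fold change 0.45, adjusted p = 0.0276) and Tkt (log2 fold change 0.41, adjusted p = 0.0386) were called as higher in Txnip-/-.

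Temperature was called for more of these genes than genotype, but for a share (36.4% in each genotype) no higher than among all genes. In WT, 12 of 33 tested genes were called between TN and RT, 4 higher at TN (Hk3, Pfkfb1, Pfkfb4 and Aldoc) and 8 lower (Hk2, Pfkl, Pfkfb3, Fbp2, Pgam1, Ldha, Slc16a1 and Taldo1), where 37.8% of all 12486 genes were called, 31.4% as higher and 6.39% as lower. In Txnip-/-, 12 of 33 were also called, 4 higher at TN (Hk1, Hk3, Pfkfb1 and Pfkfb4) and 8 lower (Hk2, Pfkfb3, Aldoa, Pgk1, Pgam1, Pgd, Taldo1 and Rpe), against 39.2% of all genes, 30.9% as higher and 8.27% as lower. Over all genes the median log2 fold change of TN against RT was 0.18 in WT and 0.15 in Txnip-/-, whereas over the 33 genes it was -0.20 and -0.19, so that the list lay below the bulk of genes in both genotypes. Without RT WT replicate 3 the WT medians were 0.16 for all genes and -0.078 for the list. The difference between these medians was not tested. With each library centred on its median, 18 of the 33 were called in WT, 1 higher and 17 lower, and 15 in Txnip-/-, 1 higher and 14 lower, and Hk3 was the gene that stayed higher in both. Calls over all genes turned toward lower as well with this centring, from 798 to 1841 lower and from 3919 to 1926 higher in WT and from 1033 to 2435 lower and from 3858 to 2294 higher in Txnip-/-, of 12486. With upper-quartile scaling, 2 of the list were called as higher and 11 as lower in WT, and 2 and 10 in Txnip-/-, against 2867 and 1205 of all genes in WT and 3207 and 1455 in Txnip-/-. Centring added Gapdh, Pgk1, Eno1, Gpi1, Pgd, Bpgm, G6pdx, Rpe and Pfkp in WT and Gapdh, Gpi1, Ldha, Bpgm, Pfkl and G6pdx in Txnip-/-, all lower at TN. A group mean was under 1 TPM for Hk3 and Aldoc in WT and for Hk3 in Txnip-/-, and of the other genes 10 of 31 were called in WT and 11 of 32 in Txnip-/-. Whether the RT and TN libraries were prepared together was not given in the sources used here, and such a batch cannot be told apart from temperature.

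**Figure D2:**
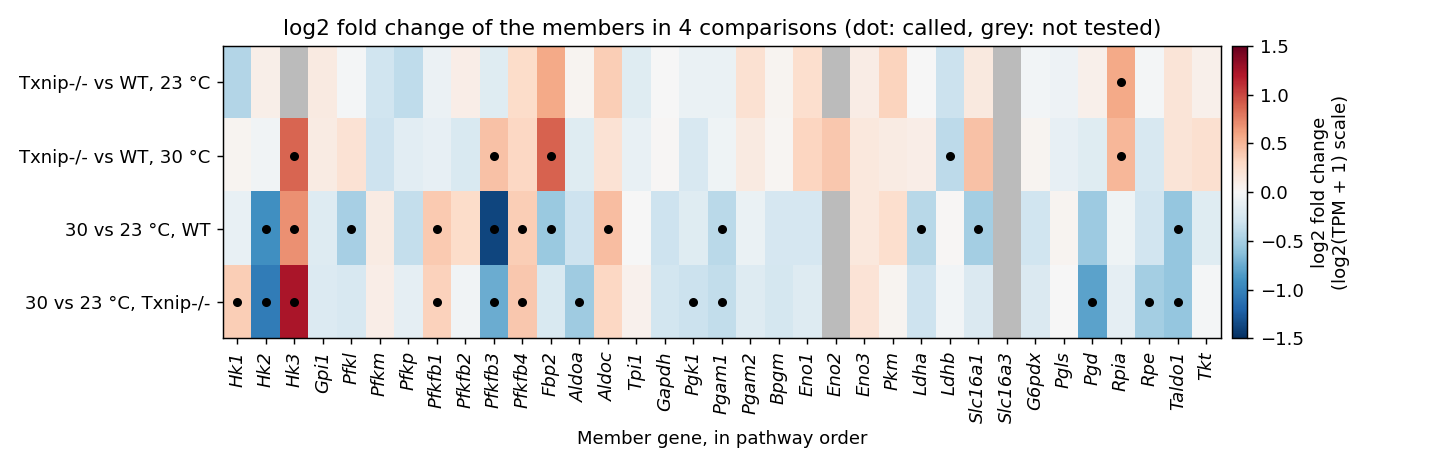
The log2 fold change on the log2(TPM + 1) scale of each of the 35 genes (columns, pathway order) in 4 comparisons (rows), red for higher and blue for lower, with a dot for called genes and grey for genes not tested. Rpia is called in both genotype rows and in neither temperature row, and Hk2, Pfkfb3, Pgam1 and Taldo1 are called as lower in both temperature rows.

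No gene of the list was called in the interaction of genotype and temperature by limma, against 0.00801% of 12486 genes, which is the 1 gene Txnip. Of the list, 5 genes had an unadjusted p under 0.05, namely Pfkfb3, Hk1, Hk3, Rpe and Pfkfb2, with adjusted p between 0.191 and 0.394, and over all genes 1571 of 12486 had such a p. Thus no genotype effect on these genes was shown to differ between the temperatures.

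Among the hexokinases, Hk2, the insulin-responsive isozyme of muscle and fat, made up most of the transcript and was lower at TN. It was at 103, 147 and 136 TPM in RT WT and 139.9, 136 and 129 TPM in RT Txnip-/-. At TN the levels were 65.4, 75.4 and 60.6 TPM in WT and 66.8, 45.4 and 88.6 TPM in Txnip-/-. All 6 TN libraries lay below all 6 RT libraries, in WT (log2 fold change -0.92, SE 0.20, adjusted p = 0.00305) and in Txnip-/- (log2 fold change -1.05, SE 0.20, adjusted p = 0.00113). Both calls were kept whichever library of the same genotype was left out. The genotypes overlapped at both temperatures, with 95% intervals for the log2 difference of -0.21 to 0.38 at RT and -0.54 to 0.44 at TN.

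Hk1, the hexokinase of most tissues, was far lower, at 11.96, 11.7 and 16.8 TPM in RT WT and 8.96, 9.68 and 10.01 TPM in RT Txnip-/-. The TN libraries held 12.7, 12.9 and 11.05 TPM in WT and 12.02, 12.54 and 13.2 TPM in Txnip-/-. The RT Txnip-/- libraries were the lowest of all, and at RT their values lay wholly below WT, yet that difference was not called (log2 fold change -0.44, SE 0.14, adjusted p = 0.1802). In Txnip-/-, Hk1 was higher at TN than at RT (log2 fold change 0.37, SE 0.12, adjusted p = 0.0208), a call lost without RT Txnip-/- replicate 1 (adjusted p = 0.0629) or TN Txnip-/- replicate 3 (adjusted p = 0.0639) and also with median centring (log2 fold change 0.18, adjusted p = 0.263) or upper-quartile scaling (log2 fold change 0.29, adjusted p = 0.0681). In the interaction its log2 difference was 0.48 (SE 0.16, unadjusted p = 0.0131, adjusted p = 0.281).

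Hk3 stood at 0.233, 0.206 and 0.18 TPM in RT WT and 0.606, 0.385 and 0.554 TPM in RT Txnip-/-. In TN WT the values were 0.633, 1.01 and 1.21 TPM, and in TN Txnip-/- 2.38, 3.38 and 1.98 TPM. The 4 groups did not overlap, although 1 RT Txnip-/- library, at 0.606 TPM, came close to the lowest TN WT library, at 0.633 TPM. In both WT groups and in RT Txnip-/- its mean was under the minimum of 1 TPM, and it entered the tests only through TN Txnip-/-, so that the following values describe it and support nothing further. It was higher in Txnip-/- at TN (log2 fold change 0.87, SE 0.18, adjusted p = 0.0235), and TN exceeded RT in WT (log2 fold change 0.68, SE 0.15, adjusted p = 0.003702) and in Txnip-/- (log2 fold change 1.22, SE 0.15, adjusted p = 8.22e-05). The genotype call was lost without TN WT replicate 1 (adjusted p = 0.0616), TN WT replicate 2 (adjusted p = 0.0539), TN Txnip-/- replicate 1 (adjusted p = 0.0719) or TN Txnip-/- replicate 2 (adjusted p = 0.0702). In the interaction the log2 difference was 0.54 (SE 0.22, unadjusted p = 0.0283, adjusted p = 0.345). Macrophage markers moved in the same order, with the sum of 8 of them (Cd68, Adgre1, Csf1r, Lyz2, Mrc1, Ctss, Itgam and Cd14) at 53.5 to 59.9 TPM in RT WT and 95.6 to 166 TPM in RT Txnip-/-, and at TN 126 to 235 TPM in WT and 394 to 556 TPM in Txnip-/-, none of the 8 at 0. All 8 were called as higher in Txnip-/- at TN and 3 of 7 tested at RT, and their part in the Hk3 difference was not tested.

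The phosphofructokinase step carried smaller differences. Pfkl, the liver-type and here the main isozyme, was at 234, 251 and 365 TPM in RT WT and 259, 279 and 278 TPM in RT Txnip-/-. The TN libraries held 208, 202 and 181 TPM in WT and 259, 235 and 197 TPM in Txnip-/-. In WT it was lower at TN (log2 fold change -0.49, SE 0.15, adjusted p = 0.0157), with all TN libraries below all RT libraries, but the call was lost without RT WT replicate 3 (log2 fold change -0.30) or TN WT replicate 3 (adjusted p = 0.0552). The genotypes overlapped at both temperatures. Pfkp ranged from 26.7 to 58.4 TPM and was not called, except as lower at TN in WT with median centring or without RT WT replicate 1 (log2 fold change -0.51, adjusted p = 0.0284).

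Pfkm, the muscle-type phosphofructokinase, was at 66.8, 65.9 and 60.5 TPM in RT WT against 54.8, 49.2 and 53.01 TPM in RT Txnip-/-, and at 82, 65.2 and 63.8 TPM in TN WT against 55.5, 56.3 and 56.03 TPM in TN Txnip-/-. At each temperature the Txnip-/- values were the lower ones, without overlap. Neither difference was called, at RT (log2 fold change -0.29, SE 0.067, adjusted p = 0.0893) or at TN (log2 fold change -0.32, SE 0.10, adjusted p = 0.0865), and with median centring the RT difference was called (log2 fold change -0.32, adjusted p = 0.0478).

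The bifunctional PFKFB enzymes make and break fructose 2,6-bisphosphate, the strongest activator of phosphofructokinase, and Pfkfb3, the form with the highest kinase activity, was the most abundant of them. It was at 273, 333 and 263 TPM in RT WT and 262, 293 and 212 TPM in RT Txnip-/-, groups that overlapped. At TN it was at 104, 122 and 106 TPM in WT and 145, 154 and 154 TPM in Txnip-/-, with all 3 Txnip-/- libraries above all 3 WT libraries.

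Pfkfb3 was lower at TN than at RT in WT (log2 fold change -1.37, SE 0.12, adjusted p = 3.76e-05), where it fell to 38.3% of its RT mean, and in Txnip-/- (log2 fold change -0.74, SE 0.12, adjusted p = 3.48e-04), where it fell to 59.1%. These 2 calls were kept whichever library of the same genotype was left out. The genotype difference at TN was called (log2 fold change 0.44, SE 0.077, adjusted p = 0.0137), was lost without TN Txnip-/- replicate 2 (adjusted p = 0.0511), and that at RT was not called (log2 fold change -0.18, SE 0.13, adjusted p = 0.56). The difference between the 2 genotype effects was 0.63 on the log2 scale (SE 0.17), with the smallest interaction p of the list (unadjusted p = 0.00267, adjusted p = 0.191).

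Unlike Pfkfb3, the other PFKFB genes were not lower at TN in WT. Pfkfb1, the liver and muscle form, was at 26.5, 27.2 and 24.1 TPM in RT WT and 21.4, 26.1 and 25.99 TPM in RT Txnip-/-. At the higher temperature WT had 33.6, 30.6 and 39.1 TPM and Txnip-/- 30.1, 30.6 and 33.6 TPM, and all TN libraries were above all RT libraries. Pfkfb1 was called as higher at TN in WT (log2 fold change 0.39, SE 0.10, adjusted p = 0.00723) and in Txnip-/- (log2 fold change 0.35, SE 0.10, adjusted p = 0.0116). With median centring neither call held (log2 fold change 0.21, adjusted p = 0.134 in WT, and 0.16, adjusted p = 0.223 in Txnip-/-), nor did they with upper-quartile scaling, which left both under the fold limit (log2 fold change 0.29 in WT and 0.27 in Txnip-/-). The WT call was lost without TN WT replicate 3 (log2 fold change 0.30) and the Txnip-/- call without RT Txnip-/- replicate 1 (log2 fold change 0.26) or TN Txnip-/- replicate 3 (log2 fold change 0.30).

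Pfkfb4, the form known from testis and tumours, was at 1.88, 1.81 and 1.496 TPM in RT WT and 2.08, 2.17 and 2.64 TPM in RT Txnip-/-. TN WT stood at 1.98, 2.82 and 2.79 TPM and TN Txnip-/- at 2.93, 3.37 and 3.76 TPM. The Txnip-/- libraries lay above WT at each temperature without overlap, but neither genotype difference was called (adjusted p = 0.298 at RT and 0.187 at TN). TN exceeded RT in WT (log2 fold change 0.36, SE 0.12, adjusted p = 0.0277) and in Txnip-/- (log2 fold change 0.40, SE 0.12, adjusted p = 0.0175), and median centring ended both calls (log2 fold change 0.18, adjusted p = 0.228 in WT, and 0.21, adjusted p = 0.154 in Txnip-/-). In WT the call was lost with upper-quartile scaling (log2 fold change 0.30, adjusted p = 0.0614), with the 6 WT libraries alone (adjusted p = 0.0571) and without RT WT replicate 3 (adjusted p = 0.09602), TN WT replicate 2 (adjusted p = 0.101) or TN WT replicate 3 (adjusted p = 0.0894). In Txnip-/- it was lost without RT Txnip-/- replicate 1 (adjusted p = 0.0558), RT Txnip-/- replicate 2 (adjusted p = 0.0566) or TN Txnip-/- replicate 3 (adjusted p = 0.06803).

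Pfkfb2, the heart form, was at 4.86, 4.53 and 3.71 TPM in RT WT and 5.38, 4.66 and 4.18 TPM in RT Txnip-/-. At TN the levels were 5.74, 5.902 and 4.88 TPM in WT and 4.404, 4.47 and 4.72 TPM in Txnip-/-. At TN the 3 Txnip-/- libraries were all below WT, and at RT the groups overlapped. It was not called, except as higher at TN in WT without RT WT replicate 1 (log2 fold change 0.35, adjusted p = 0.0298) or TN WT replicate 3 (log2 fold change 0.35, adjusted p = 0.0286) and with a pseudocount of 0.1 (log2 fold change 0.33, adjusted p = 0.0454), and its log2 difference in the interaction was -0.33 (SE 0.15, unadjusted p = 0.0492, adjusted p = 0.394). As a share of the summed TPM of the 4 PFKFB genes, Pfkfb3 went from 89.99% ± 0.837 (SD, n = 3) in RT WT and 88.9% ± 1.94 in RT Txnip-/- to 72.2% ± 3.11 in TN WT and 79.4% ± 0.7503 in TN Txnip-/-.

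Fbp2, the muscle fructose bisphosphatase, runs the phosphofructokinase step backwards. It was at 21.8, 15.6 and 26.1 TPM in RT WT and 27.7, 32.2 and 33.8 TPM in RT Txnip-/-. In TN WT the values were 10.7, 17.1 and 14.2 TPM, and in TN Txnip-/- 23.6, 32.2 and 24.04 TPM. The Txnip-/- libraries lay above WT at both temperatures with no overlap.

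The TN difference in Fbp2 was called (log2 fold change 0.89, SE 0.17, adjusted p = 0.0207) but was lost without TN WT replicate 3 (adjusted p = 0.0611) or TN Txnip-/- replicate 2 (adjusted p = 0.0634). The RT difference was not called (log2 fold change 0.56, SE 0.17, adjusted p = 0.181). In WT, Fbp2 was lower at TN (log2 fold change -0.56, SE 0.19, adjusted p = 0.0321), with 1 TN WT library inside the RT WT range, a call lost without RT WT replicate 1 (adjusted p = 0.0773), RT WT replicate 3 (adjusted p = 0.127), TN WT replicate 1 (adjusted p = 0.126) or TN WT replicate 3 (adjusted p = 0.06004). It was also lost with all genes above 0 TPM in the fit (adjusted p = 0.0542) and with the 6 WT libraries alone (adjusted p = 0.0623). Fbp2 is also expressed in muscle, whose markers are given below, and in both TN groups Fbp2 was highest in replicate 2, the library with the highest muscle sum. In the TN Txnip-/- libraries with low muscle sums, replicates 1 and 3, it was at 23.6 and 24.04 TPM. At RT the muscle sum without Myl1 was 25.2 to 60.6 TPM in Txnip-/- and 3.09 to 3.58 TPM in WT. In RT Txnip-/- Fbp2 was highest in replicate 3, with the highest sum, but in RT WT it was highest in replicate 3, with the lowest sum. The part of muscle in the Fbp2 difference was not tested.

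**Figure D3:**
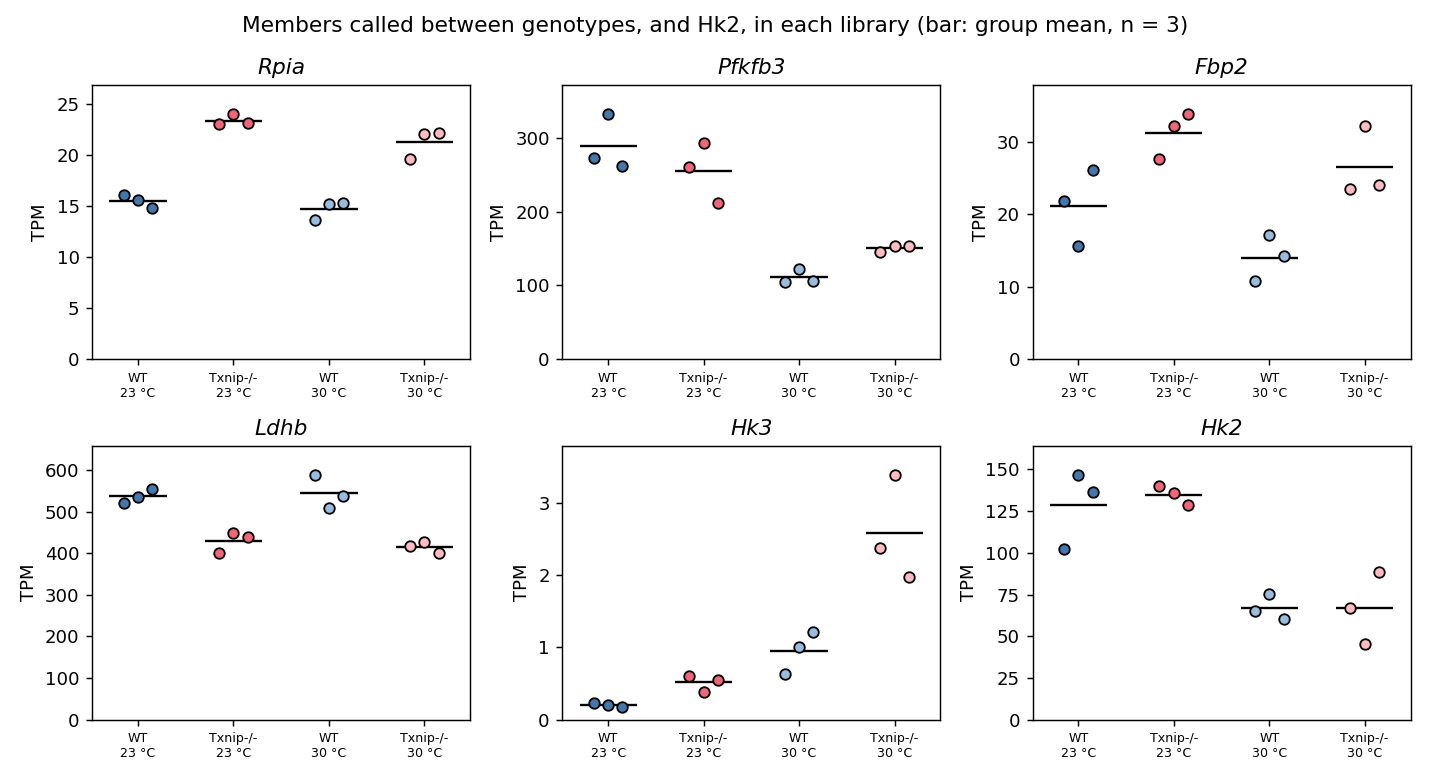
TPM of the 5 genes called between genotypes, and of Hk2, in each library by group, with a bar at the mean of 3 libraries and axes that start at 0. Rpia and Fbp2 sit higher and Ldhb lower in Txnip-/- than in WT at both temperatures without overlap, Pfkfb3 and Hk2 sit lower at TN in both genotypes, and Hk3 is highest in TN Txnip-/-, at 1.98 to 3.38 TPM.

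In the middle of glycolysis, most genes were called in no genotype comparison and the calls that were made concerned temperature. Gpi1, which turns glucose 6-phosphate into fructose 6-phosphate, ranged from 274 to 444 TPM and was called only with median centring, for temperature, while Tpi1, the triose phosphate isomerase (272 to 343 TPM), was not called, although its Txnip-/- libraries lay below WT without overlap at RT (log2 fold change -0.18, SE 0.057, adjusted p = 0.195) and at TN (log2 fold change -0.11, SE 0.07, adjusted p = 0.361). Aldoa was at 2506, 2532 and 4108 TPM in RT WT and 2715, 3293 and 3194 TPM in RT Txnip-/-. The TN libraries held 2036, 2842 and 2347 TPM in WT and 2099.8, 1908 and 2333 TPM in Txnip-/-. In Txnip-/- the TN libraries were all below the RT libraries (log2 fold change -0.54, SE 0.18, adjusted p = 0.0272), a call lost without RT Txnip-/- replicate 2 (adjusted p = 0.0867), RT Txnip-/- replicate 3 (adjusted p = 0.0738), TN Txnip-/- replicate 1 (adjusted p = 0.0644) or TN Txnip-/- replicate 2 (adjusted p = 0.0879) and with all genes above 0 TPM in the fit (adjusted p = 0.0601). In WT the groups overlapped, with RT WT replicate 3 far above all others. In the same Txnip-/- comparison, 7 of 8 tested skeletal muscle markers were called as lower at TN, 3 of them with a TN mean under 1 TPM, and their part in the Aldoa difference was not tested.

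Aldoc, the aldolase of brain, was at 0.953, 0.904 and 0.949 TPM in RT WT and 1.58, 1.38 and 1.53 TPM in RT Txnip-/-. In TN WT the values were 1.29, 2.31 and 1.503 TPM, and in TN Txnip-/- 2.204, 1.63 and 2.55 TPM. RT WT was the lowest group, with a mean under the minimum of 1 TPM, and the other 3 groups lay wholly above it. In WT, TN was higher than RT (log2 fold change 0.46, SE 0.14, adjusted p = 0.0194), a call lost without TN WT replicate 2 (adjusted p = 0.0817) and with median centring (log2 fold change 0.28, adjusted p = 0.121), and the genotype difference at RT was not called (log2 fold change 0.37, SE 0.10, adjusted p = 0.13). In Txnip-/- it was called as higher at TN only without TN Txnip-/- replicate 2 (log2 fold change 0.43, adjusted p = 0.0328).

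Below the triose phosphates, Gapdh (470.3 to 869 TPM), Bpgm, the mutase that makes the 2,3-bisphosphoglycerate of red cells (20.3 to 29.7 TPM), Eno1 and Pkm were not called between temperatures or genotypes in the fit described. Without TN WT replicate 2, Gapdh was called as lower at TN in WT (log2 fold change -0.48, adjusted p = 0.0136), and Bpgm was so without RT WT replicate 3 (log2 fold change -0.34, adjusted p = 0.0249) and in Txnip-/- without TN Txnip-/- replicate 2 (log2 fold change -0.35, adjusted p = 0.0163). With upper-quartile scaling Bpgm was called as lower at TN in both genotypes (log2 fold change -0.35, adjusted p = 0.0137 in WT, and -0.34, adjusted p = 0.0136 in Txnip-/-). Eno2 was tested only between genotypes at TN. With all genes above 0 TPM in the fit it was called as higher at TN in Txnip-/- (log2 fold change 0.43, adjusted p = 0.0298), as it was with the 6 Txnip-/- libraries alone (adjusted p = 0.0233). Its Txnip-/- means were 0.798 TPM at RT and 1.402 TPM at TN, so that it passed the minimum there only through TN. With all genes above 0 TPM, Slc16a3 was also called as higher at TN in Txnip-/- (log2 fold change 0.43, adjusted p = 0.0217). Its means there were 0.471 TPM at RT and 0.989 TPM at TN, both under the minimum. These calls describe low levels and support nothing further. Pkm was at 899, 882 and 617 TPM in RT WT and 928, 978 and 1073 TPM in RT Txnip-/-, all higher, with the lowest WT value in replicate 3 (log2 fold change 0.33, SE 0.14, adjusted p = 0.324). The TN Txnip-/- libraries were also all above TN WT in Eno1 (log2 fold change 0.32, SE 0.11, adjusted p = 0.117) and in Eno2 (log2 fold change 0.41, SE 0.11, adjusted p = 0.0636). Pgk1, the phosphoglycerate kinase, was at 179.7, 188 and 186 TPM in RT Txnip-/- and 149, 137 and 155 TPM in TN Txnip-/-, lower at TN without overlap (log2 fold change -0.33, SE 0.065, adjusted p = 0.00145). The call was lost, on the size of the fold, without RT Txnip-/- replicate 2 (log2 fold change -0.31) or TN Txnip-/- replicate 2 (log2 fold change -0.28). In WT its group means were 198 ± 13.2 TPM at RT and 174 ± 6.81 TPM at TN (SD, n = 3), under the fold limit. Its Txnip-/- libraries lay below WT without overlap at both temperatures, and neither difference was called (log2 fold change -0.10, SE 0.061, adjusted p = 0.488 at RT, and log2 fold change -0.24, SE 0.072, adjusted p = 0.07702 at TN).

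Pgam1, the mutase of most tissues, was at 73.1, 65.9 and 70.3 TPM in RT WT and 60.1, 66.2 and 69.7 TPM in RT Txnip-/-. At the higher temperature WT had 59.1, 50.1 and 48.98 TPM and Txnip-/- 50.6, 47.6 and 53.1 TPM. All 6 TN libraries were below all 6 RT libraries. The difference was called in WT (log2 fold change -0.40, SE 0.083, adjusted p = 0.00239), whichever WT library was left out, and in Txnip-/- (log2 fold change -0.37, SE 0.083, adjusted p = 0.00345), where it was lost without RT Txnip-/- replicate 3 (log2 fold change -0.32).

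Muscle that is carried over at dissection would bring the muscle isozymes with it, so Pgam2, Eno3 and Pfkm were read beside 12 skeletal muscle markers. None of the 12 was at 0 throughout, but the sum of all markers other than Myl1, which was high in all libraries (45.0 to 76.6 TPM) and was set apart after its values were seen, was 3.09 to 3.58 TPM in RT WT and 25.2 to 60.6 TPM in RT Txnip-/-. At TN it was 5.26, 20.9 and 4.08 TPM in WT and 5.44, 20.9 and 5.02 TPM in Txnip-/-, so that replicate 2 of both TN groups held more than the others. With Myl1 the sums were 76.3 to 79.9 TPM in RT WT and 77.96 to 123 TPM in RT Txnip-/-, and at TN 77.98 to 93.01 TPM in WT and 50.4 to 68.9 TPM in Txnip-/-. At RT 7 of 8 tested markers were called as higher in Txnip-/-, but 6 of these 7 had a WT mean under 1 TPM and were tested only because of their Txnip-/- level, and 4 of the 12 were not tested. The eighth, Myl1, the most abundant, was lower in Txnip-/- at RT without overlap, at 76.6, 74.3 and 73.2 TPM in WT and 52.1, 52.8 and 62.4 TPM in Txnip-/-, and was not called (log2 fold change -0.42, SE 0.079, adjusted p = 0.0537). Of 4 markers tested at TN, 1 was called, Myl1, as lower in Txnip-/-. Ckm, the muscle creatine kinase, was at 0.159, 0.032 and 0.041 TPM in RT WT and 5.41, 3.75 and 9.32 TPM in RT Txnip-/-. Its TN levels were 0.144, 2.895 and 0.17 TPM in WT and 0.18, 2.33 and 0.16 TPM in Txnip-/-, with overlap.

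Pgam2, the muscle mutase, was at 1.73, 1.87 and 2.04 TPM in RT WT and 2.31, 1.87 and 3.06 TPM in RT Txnip-/-, with overlap (log2 fold change 0.23, SE 0.14, adjusted p = 0.48). At TN it was at 1.44, 2.02 and 1.66 TPM in WT and 1.47, 2.599 and 1.93 TPM in Txnip-/-, again with overlap (log2 fold change 0.14, SE 0.16, adjusted p = 0.647). The highest value of each TN group was in replicate 2, and the highest of all in RT Txnip-/- replicate 3, the libraries with the highest marker sum of their group. Without TN Txnip-/- replicate 2 the TN log2 fold change was -8.4e-04.

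Eno3, the muscle enolase, was at 11.1, 10.5 and 9.46 TPM in RT WT and 11.03, 9.96 and 12.99 TPM in RT Txnip-/-. TN WT stood at 11.4, 12.2 and 11.3 TPM and TN Txnip-/- at 13.5, 13.1 and 12.8 TPM. The TN Txnip-/- libraries were all above TN WT, in the libraries with high and with low muscle sums, but the difference was not called (log2 fold change 0.16, SE 0.067, adjusted p = 0.175), nor was that at RT (log2 fold change 0.12, SE 0.11, adjusted p = 0.663), where the groups overlapped. The part of muscle in these levels was not tested.

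**Figure D4:**
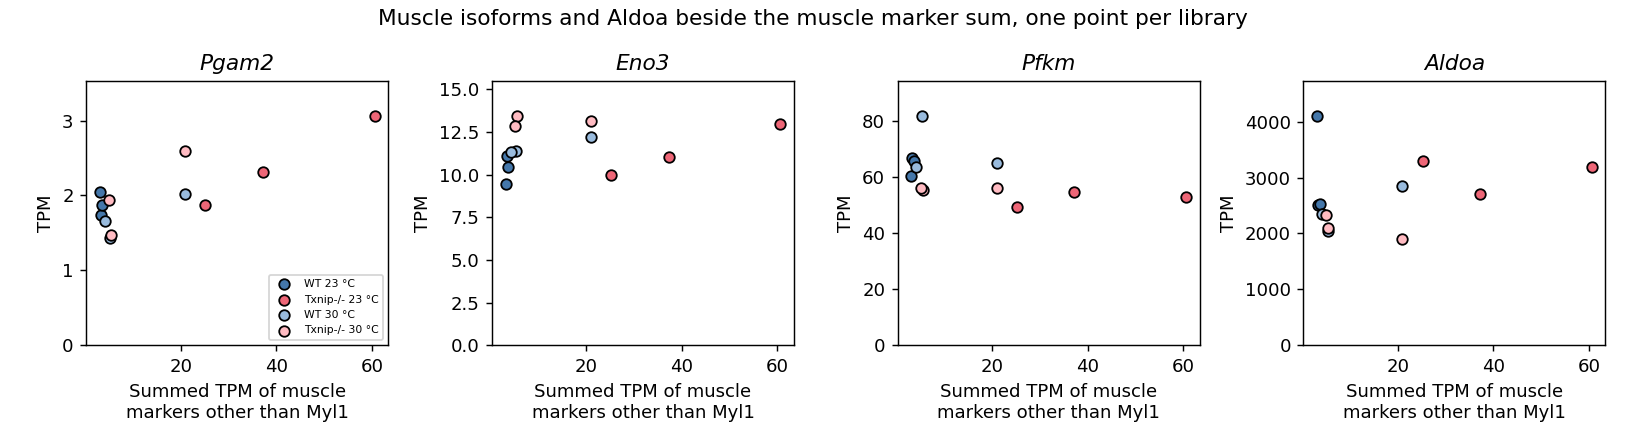
TPM of Pgam2, Eno3, Pfkm and Aldoa against the summed TPM of 11 skeletal muscle markers, with 1 point for each of the 12 libraries coloured by group. Pgam2 is highest, at 3.06 TPM, in the library with the highest marker sum, whereas Pfkm lies at 49.2 to 54.8 TPM in the 3 RT Txnip-/- libraries that hold 25.2 to 60.6 TPM of markers.

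At the lactate dehydrogenase step, Ldhb lay lower in Txnip-/- at both temperatures, called at TN only in the fit described. Ldha was called for genotype at neither. Ldha encodes the subunit that favours making lactate, and Ldhb the subunit of heart, which favours using it. Ldhb was at 521, 535 and 554 TPM in RT WT and 399.6, 448 and 438 TPM in RT Txnip-/-. At the higher temperature WT had 588, 508 and 538 TPM and Txnip-/- 417, 428 and 401 TPM. All 6 Txnip-/- libraries were below all 6 WT libraries, with group means of 79.8% of WT at RT and 76.3% of WT at TN.

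The Ldhb difference was called at TN (log2 fold change -0.39, SE 0.076, adjusted p = 0.0212) but missed the threshold at RT (log2 fold change -0.33, SE 0.06, adjusted p = 0.05103). At RT it was called when all 12 libraries were fitted together (adjusted p = 0.0286), and at TN the call was lost without TN WT replicate 3 (adjusted p = 0.0592), TN Txnip-/- replicate 1 (adjusted p = 0.0805), TN Txnip-/- replicate 2 (adjusted p = 0.0577) or TN Txnip-/- replicate 3 (adjusted p = 0.0548). The log2 fold change without these libraries was between -0.41 and -0.36. The TN call was also lost with all genes above 0 TPM in the fit (adjusted p = 0.0590), with a replicate block (adjusted p = 0.0530), with both replicate 2 libraries left out (adjusted p = 0.0823) and with the authors' log2 values (log2 fold change -0.30), 8 of 14 alternatives in all. Temperature was not called for it in WT, with a log2 difference of 0.019 (95% interval -0.13 to 0.16).

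Ldha was called for genotype at neither temperature, and its levels were lower at TN in both genotypes. It was at 1030.2, 1016 and 1268 TPM in RT WT and 1077, 1114 and 1103 TPM in RT Txnip-/-. At TN the levels were 788, 921 and 767 TPM in WT and 919, 859 and 868 TPM in Txnip-/-, all TN libraries lying below all RT libraries. In WT it was called as lower at TN (log2 fold change -0.42, SE 0.091, adjusted p = 0.00314), a call lost on the size of the fold without RT WT replicate 3 (log2 fold change -0.31). In Txnip-/- the log2 fold change was -0.32 (adjusted p = 0.0127), just under the fold limit of 0.322 on the log2 scale. It was past that limit and called with upper-quartile scaling (log2 fold change -0.40, adjusted p = 0.00638), with median centring (log2 fold change -0.50, adjusted p = 0.00154), without RT Txnip-/- replicate 1 (log2 fold change -0.33, adjusted p = 0.0246) and without TN Txnip-/- replicate 1 (log2 fold change -0.35, adjusted p = 0.0229). The genotypes differed by -0.0016 (95% interval -0.21 to 0.21) at RT and by 0.10 (95% interval -0.10 to 0.31) at TN.

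Slc16a1, the monocarboxylate transporter MCT1, carries lactate in either direction. It was at 151, 154 and 112 TPM in RT WT and 189.8, 146 and 127 TPM in RT Txnip-/-. The TN libraries held 113, 97.3 and 80.7 TPM in WT and 145, 130.1 and 119 TPM in Txnip-/-. In WT it was lower at TN (log2 fold change -0.51, SE 0.17, adjusted p = 0.0243), with overlap at 1 library of each group, and the call was lost without RT WT replicate 1 (adjusted p = 0.0744), RT WT replicate 2 (adjusted p = 0.0843), TN WT replicate 2 (adjusted p = 0.0557) or TN WT replicate 3 (adjusted p = 0.0961). At TN all Txnip-/- libraries were above WT but the difference was not called (log2 fold change 0.44, SE 0.13, adjusted p = 0.07004). It was called at TN without TN WT replicate 1 (log2 fold change 0.56, adjusted p = 0.0369) and with a replicate block (log2 fold change 0.44, adjusted p = 0.0253).

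In the pentose phosphate pathway, Rpia was the one gene of the list called between genotypes at both temperatures. Its enzyme, ribose 5-phosphate isomerase, links the oxidative arm to the sugars used for nucleotides and for the return to glycolysis. Rpia was at 16.1, 15.6 and 14.8 TPM in RT WT and 23.1, 24.02 and 23.1 TPM in RT Txnip-/-. TN WT stood at 13.7, 15.2 and 15.4 TPM and TN Txnip-/- at 19.7, 22.05 and 22.1 TPM. The groups did not overlap at either temperature, and the Txnip-/- means were 151% of WT at RT and 144% of WT at TN.

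The Rpia difference was called at RT (log2 fold change 0.56, SE 0.063, adjusted p = 0.0199) and at TN (log2 fold change 0.50, SE 0.079, adjusted p = 0.0105). Over the alternatives the log2 fold change ran from 0.33 to 0.59 at RT and from 0.33 to 0.55 at TN. At TN the call was kept whichever single library was left out. It was lost with both replicate 2 libraries left out (adjusted p = 0.0855). At RT the call was lost without RT WT replicate 2 (adjusted p = 0.105). It was also lost without RT Txnip-/- replicate 1 (adjusted p = 0.0502) or RT Txnip-/- replicate 3 (adjusted p = 0.0806). The log2 fold change was 0.57 in each of these RT cases. With the stricter fold limit used as an alternative, the call was lost at both temperatures. In the interaction the log2 difference was -0.064 (95% interval -0.27 to 0.15). Temperature was called in neither genotype.

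Taldo1, the transaldolase that passes 3-carbon units between sugars, was at 973, 873 and 1138 TPM in RT WT and 1052, 1196 and 1153 TPM in RT Txnip-/-. In TN WT the values were 593, 734 and 671 TPM, and in TN Txnip-/- 776, 748 and 755 TPM. All TN libraries were below all RT libraries, in WT (log2 fold change -0.57, SE 0.10, adjusted p = 8.97e-04) and in Txnip-/- (log2 fold change -0.57, SE 0.10, adjusted p = 6.47e-04). Both calls were kept whichever library of the same genotype was left out. At TN Txnip-/- lay above WT without overlap, yet that was not called (log2 fold change 0.19, SE 0.089, adjusted p = 0.22).

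Rpe, the epimerase that works beside Rpia, was at 53.9, 52.5 and 51.2 TPM in RT WT and 47.5, 56.01 and 51.7 TPM in RT Txnip-/-. At the higher temperature WT had 44.6, 41.6 and 42.6 TPM and Txnip-/- 38.7, 35.2 and 34.5 TPM. It was lower at TN in Txnip-/- (log2 fold change -0.50, SE 0.069, adjusted p = 1.39e-04), whichever Txnip-/- library was left out. In WT the difference was below the fold limit (log2 fold change -0.28, SE 0.069, adjusted p = 0.00547), but it was called with upper-quartile scaling (log2 fold change -0.38, adjusted p = 0.00182) and with median centring (log2 fold change -0.47, adjusted p = 0.00104). The 3 TN Txnip-/- libraries were the lowest, below TN WT without overlap, a difference that was not called (log2 fold change -0.24, SE 0.069, adjusted p = 0.0669), and the interaction had a log2 difference of -0.22 (SE 0.10, unadjusted p = 0.0436, adjusted p = 0.381).

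The oxidative arm was called between genotypes in none of its 3 genes. Pgd was at 194, 177 and 388 TPM in RT WT and 209, 256 and 290.5 TPM in RT Txnip-/-. TN WT stood at 125, 215 and 158 TPM and TN Txnip-/- at 130.1, 148 and 151 TPM, a wide spread within the groups. In Txnip-/- it was lower at TN without overlap (log2 fold change -0.80, SE 0.27, adjusted p = 0.0245), a call lost without RT Txnip-/- replicate 2 (adjusted p = 0.0645), RT Txnip-/- replicate 3 (adjusted p = 0.0834) or TN Txnip-/- replicate 1 (adjusted p = 0.0754). In WT it was called as lower at TN with median centring (log2 fold change -0.73, adjusted p = 0.0497) and without RT WT replicate 2 (log2 fold change -0.76, adjusted p = 0.0455). G6pdx, the first NADPH-producing enzyme (91.5 to 149 TPM), and Pgls, the lactonase between the 2 dehydrogenases (139.6 to 180.4 TPM), were not called in the fit described. G6pdx was called as lower at TN in WT with median centring, with upper-quartile scaling (log2 fold change -0.40, adjusted p = 0.0174), without RT WT replicate 2 (log2 fold change -0.37, adjusted p = 0.0362) and without TN WT replicate 2 (log2 fold change -0.39, adjusted p = 0.0277). Tkt was called only at TN without TN WT replicate 2, as given above. Averaged over its genes as log2(TPM + 1), the non-oxidative arm was at 7.59 ± 0.12 (SD, n = 3) in RT WT and 7.80 ± 0.056 in RT Txnip-/-, and at 7.31 ± 0.11 in TN WT and 7.49 ± 0.0094 in TN Txnip-/-. For the oxidative arm the same averages were 7.43 ± 0.22, 7.41 ± 0.16, 7.16 ± 0.15 and 7.07 ± 0.057.

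To compare isozymes of the same step, the log2 ratio of their TPM was formed in each library for 8 pairs, and genotype and temperature labels were permuted within the other factor (exact two-sided test, 400 relabellings, smallest possible p 0.005, adjusted over 16 tests). Of the 8 ratios, 3 differed between the genotypes. Ldhb/Ldha was -0.98, -0.93 and -1.20 in RT WT and -1.43, -1.31 and -1.33 in RT Txnip-/-, and -0.42, -0.86 and -0.51 in TN WT and -1.14, -1.01 and -1.11 in TN Txnip-/-. It was lower in Txnip-/- at both temperatures without overlap (difference -0.41, exact permutation p = 0.005, adjusted p = 0.0114) and higher at TN (difference 0.35, exact permutation p = 0.005, adjusted p = 0.0114). In shares, Ldhb went from 32.8% ± 2.16 of lactate dehydrogenase TPM in RT WT to 28.1% ± 0.873 in RT Txnip-/-, and from 39.8% ± 3.78 in TN WT to 32.02% ± 1.06 in TN Txnip-/- (SD, n = 3).

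Pfkp/Pfkl was also lower in Txnip-/- (difference -0.37, exact permutation p = 0.005, adjusted p = 0.0114), with group means at RT of -2.76 ± 0.10 in WT and -3.12 ± 0.042 in Txnip-/-, and at TN of -2.63 ± 0.15 and -3.02 ± 0.16 (SD, n = 3). Aldoc/Aldoa was higher in Txnip-/- (difference 0.58, exact permutation p = 0.005, adjusted p = 0.0114) and higher at TN (difference 1.08, exact permutation p = 0.005, adjusted p = 0.0114), although Aldoc never made up more than 0.109% of aldolase TPM. Pfkm/Pfkl did not pass for genotype (difference -0.40, exact permutation p = 0.035, adjusted p = 0.056) but did so without RT WT replicate 3 (difference -0.52, adjusted p = 0.0133 by the same exact test). For genotype, Hk2/Hk1 passed only without TN Txnip-/- replicate 2 (difference 0.36, adjusted p = 0.0444) and Eno3/Eno1 only without RT WT replicate 3 (difference -0.27, adjusted p = 0.0436).

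Temperature moved 6 of the 8 ratios. Hk2/Hk1 was lower at TN (difference -1.13, exact permutation p = 0.005, adjusted p = 0.0114), falling from 3.26 ± 0.34 to 2.45 ± 0.09 in WT and from 3.82 ± 0.14 to 2.36 ± 0.46 in Txnip-/- (SD, n = 3). Pfkm/Pfkl was higher at TN (difference 0.48, exact permutation p = 0.005, adjusted p = 0.0114), as was Eno3/Eno1 (difference 0.42, exact permutation p = 0.01, adjusted p = 0.02), which no longer passed without TN WT replicate 3 (adjusted p = 0.05). Slc16a3/Slc16a1 was higher at TN (difference 0.94, exact permutation p = 0.025, adjusted p = 0.0444), but with Slc16a3 near or under 1 TPM it lost the call in 8 of 12 leave-outs (without RT WT replicate 1 or 2, any RT Txnip-/- library, TN WT replicate 2 or 3, or TN Txnip-/- replicate 1), with adjusted p from 0.0533 to 0.107. Pgam2/Pgam1, the pair with the muscle mutase, differed by neither genotype (difference 0.35, exact permutation p = 0.1, adjusted p = 0.133) nor temperature (difference 0.17, exact permutation p = 0.385, adjusted p = 0.411).

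**Figure D5:**
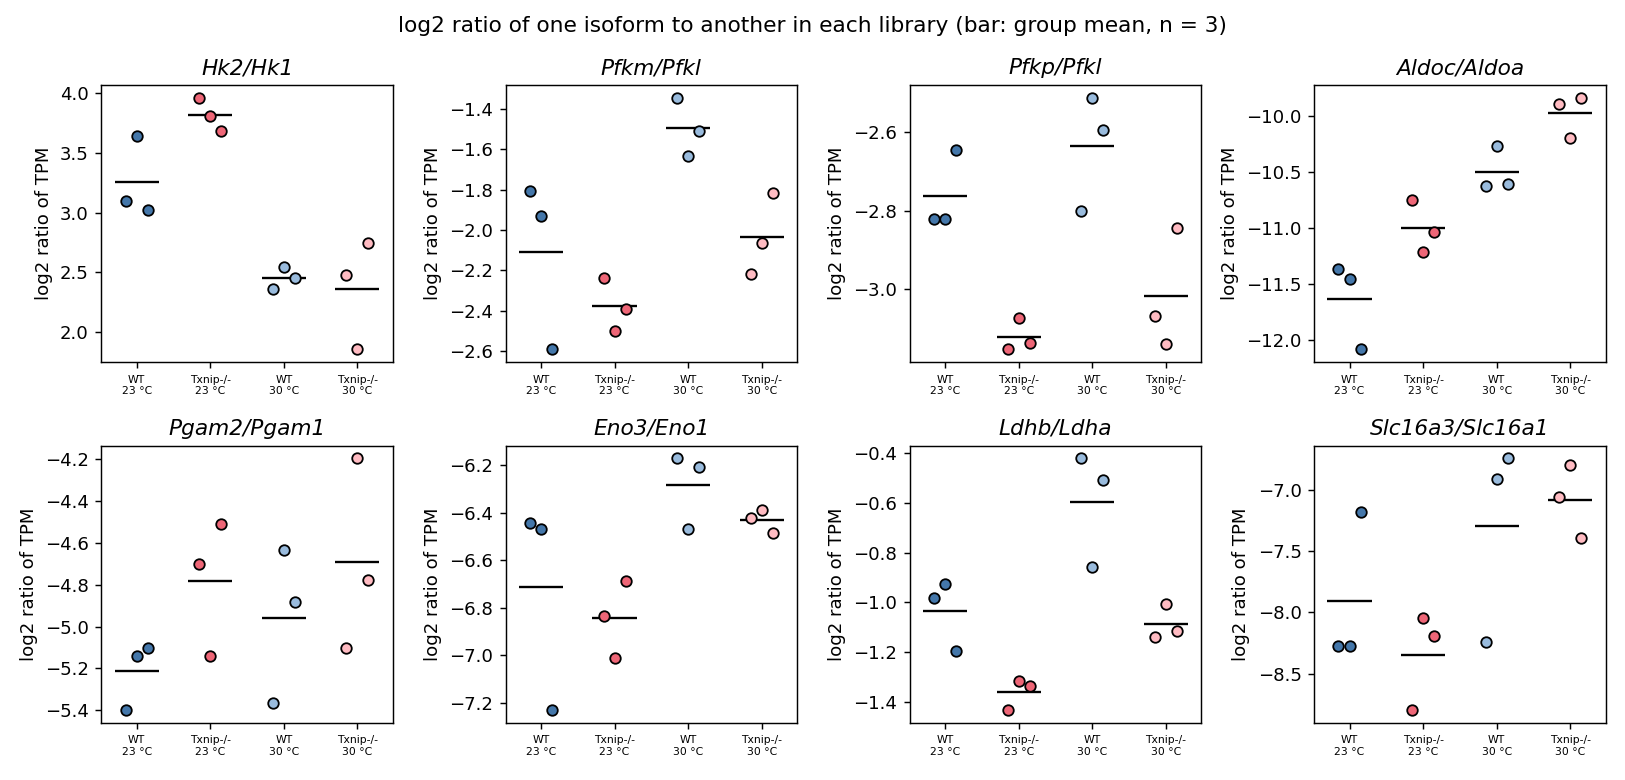
The log2 ratio of the TPM of 2 isozymes of a step in each library, by group, with a bar at the mean of 3 libraries. Ldhb/Ldha and Pfkp/Pfkl sit lower in Txnip-/- than in WT at both temperatures without overlap, Aldoc/Aldoa sits higher, and Hk2/Hk1 falls at TN in both genotypes.

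Of a list of 29 other genes of the pathway, 18 were tested. At RT 1 was called, against 1.49% of all genes, Ldhd, a mitochondrial D-lactate dehydrogenase, which was lower in Txnip-/- (97.3, 101 and 96.1 TPM in WT and 79.5, 72.9 and 78.3 TPM in Txnip-/-, without overlap), and the median log2 fold change was 0.066. At TN 6 were called, 4 higher in Txnip-/- (Bsg, Prps1, Emb and Mlxipl) and 2 lower (Ldhd and Slc16a7), against 8.66% of all genes, with a median of -0.042. Mlxipl, which encodes ChREBP, was at 122, 183 and 128 TPM in TN WT and 229.8, 227 and 239 TPM in TN Txnip-/-, without overlap. At RT it was at 87.5, 112 and 157 TPM in WT and 202, 166 and 199.7 TPM in Txnip-/-, also without overlap. That difference was not called (log2 fold change 0.70, SE 0.20, adjusted p = 0.146), and in the interaction the log2 difference was 0.0025 (SE 0.27). Bsg and Emb encode the partner proteins that bring monocarboxylate transporters to the cell surface, and Bsg was at 422, 396 and 434 TPM in TN WT and 636, 752 and 496 TPM in TN Txnip-/-. Prps1, which uses the product of Rpia to start nucleotide synthesis, was at 27.7, 30.9 and 32.4 TPM in TN WT and 53.3, 54.4 and 37.6 TPM in TN Txnip-/-, again higher without overlap. Between TN and RT, 4 of the 18 were called as higher and 4 as lower in WT (7 of 17 without Emb, whose RT WT mean was under 1 TPM), against 37.8% of all genes and with a median of 0.076, and 3 as higher and 5 as lower in Txnip-/-, against 39.2% and with a median of -0.017. Mpc1 and Mpc2, the 2 subunits of the mitochondrial pyruvate carrier, were lower at TN in both genotypes.

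Some of these levels share reads with near-identical copies. Of the read-length words of 75 bases in the transcript, 80.3% were also found in other genes for Gapdh, 67.5% for Pgk1, 65.4% for Eno1, 40.6% for Pgam1, 16.7% for Ldhb, 15.6% for Pkm and 9.96% for Gpi1, so that the levels of these genes depend on how such reads were counted. For Rpia, Pfkfb3, Fbp2, Hk2, Hk3 and Rpe the share was 0. In the annotation, 14 of the 35 genes overlap exons of another gene, the largest shares of exon bases being 20.6% of Pgls with Fam129c, 17.5% of Pfkfb2 with Gm29427 and 15.3% of Pkm with Gm49759 on the same strand, and 17.9% of Rpe with Kansl1l, 13.6% of G6pdx with Ikbkg and 11.5% of Gpi1 with Gm26762 on the opposite strand. Whether reads were counted by strand was not given in the sources used here.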

How the data were processed

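RNA was taken from interscapular BAT, and poly-A libraries (NEBNext Ultra II) were read as single-end reads of 75 bases on a NextSeq 550. Per the study's methods and processing notes, the authors aligned reads with STAR 2.7.5a to mm10 and counted exons of 1 transcript per gene with HOMER 4.11.1. The deposited TPM values of all 12 libraries, scaled by the authors for length and depth, were the basis of every level and test. The authors also deposited log2 values in a table for each temperature, used here as an alternative. They rest on another transcript for 12 of the 35 genes. The fold changes and p-values in those tables are the authors' own comparisons and were not used. No raw counts were used, so that no count model was fitted.

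Groups followed the labels. limma 3.58.1 (R 4.3.3) with a trend was fitted to log2(TPM + 1) for genes with a mean of at least 1 TPM in the libraries of the fit: 6 libraries for a genotype comparison, 12 for temperature and interaction. The comparisons therefore share libraries. Fold changes are on this scale, which understates those of low genes. Genes were called at a fold above 1.25 or below 0.8 and an adjusted p under 0.05, adjusted over all genes tested (interaction: adjusted p alone). Intervals of 95% use limma's moderated SE and degrees of freedom. Ratios of isozymes were compared by exact permutation over libraries. The fit was tested on simulated data. The members, marker lists and tests were chosen with earlier results of these data known, and all 35 members are accounted for. Alternatives were a pseudocount of 0.1, no filter on low values, upper-quartile scaling, median centring, other fold limits, a replicate block, other sets of libraries, the log2 values and leaving out each library, and, chosen after seeing the data, leaving out both TN replicate 2 libraries. For temperature, only the libraries of the genotype concerned were left out in turn.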

Additional observations from a re-analysis of the deposited data

How the results depend on the processing

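With a fold limit of 1.5, the number of genes called fell from 1 to 0 for Txnip-/- against WT at RT, from 5 to 2 at TN, from 12 to 3 for TN against RT in WT and from 12 to 4 in Txnip-/-. At RT it was 2 with median centring and 2 with all 12 libraries in 1 fit, and leaving out 1 library gave 0 to 2. At TN it was 2 with all genes above 0 TPM in the fit, 3 with the authors' log2 values, 0 with both replicate 2 libraries left out, and 1 to 6 without 1 library. For temperature, leaving out 1 library of the genotype concerned gave 8 to 13 in WT and 8 to 11 in Txnip-/-. No gene of the list passed in the interaction under any alternative run, where 1 to 6 of all genes did. The TN difference in Pgam2 ran from -8.43e-04 (without TN Txnip-/- replicate 2) to 0.27 on the log2 scale when 1 library was left out. The genotype difference of the Slc16a3/Slc16a1 ratio turned from -0.11 to 0.071 without RT WT replicate 3, 0.0013 without RT Txnip-/- replicate 1 and 0.027 without TN WT replicate 3, with a range of -0.35 to 0.071. Over single genes and ratios, 649 of the other values kept their direction and their side of the threshold, 81 lost it and 4 gained it, and the cause was not tested. Same-numbered libraries of the 2 genotypes correlated in their deviations from the group means at 0.30, -0.022 and 0.21 at RT and 0.042, 0.023 and -0.036 at TN, so that the numbers were not taken to pair the samples. With a replicate block, 1 gene was called at RT and 5 at TN, all 5 higher, of which 4 were also called without the block (Ldhb was lost, adjusted p = 0.0530, and Slc16a1 was gained, log2 fold change 0.44, adjusted p = 0.0253), 12 for temperature in either genotype and 0 in the interaction. With 3 libraries a group and no raw counts, counting error at the low levels of Slc16a3, Eno2, Hk3 and Aldoc could not be separated from other spread.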
